A study of Mus musculus with 4 samples.

Results

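Glul, Oat, Slc1a2, Rhbg, Lgr5, Axin2, Tbx3, Nkd1, Sp5 and Gulo are pericentral liver genes of glutamine handling, Wnt signalling and ascorbate synthesis. They were taken by symbol and are 10 of the 32285 genes in the deposited count matrices. Each was followed over the zones of the hepatocytes, over the other cell classes and over the 4 libraries. Nuclei came from frozen liver of male wild-type C57BL6/J mice aged 2 months (young, 2 libraries) or 30 months (aged, 2 libraries). No treatment or transgene was named, and 10000 nuclei per sample were loaded for droplet sequencing with the 10x 3' v2 chemistry. The labels call the libraries replicates without saying that they came from separate animals. A p-value for age therefore measures the spread between these libraries. With the library as a block, a p-value for zone, or for zone by age, measures the spread of the difference between zones over them. Either spread may be technical.

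Blood crosses the liver lobule from the portal vein to the central vein, and hepatocytes differ along this path. Wnt ligands and R-spondins made by endothelial and other cells near the central vein activate beta-catenin in the neighbouring hepatocytes, which there express a pericentral gene programme. The innermost of these hepatocytes use glutamine synthetase to capture ammonia that escaped the periportal urea cycle.

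The libraries held 2666 and 14718 barcodes (young replicates 1 and 2) and 11362 and 14267 (aged replicates 1 and 2), with 11799751, 17809372, 38457709 and 54777101 UMIs (unique molecular identifiers, the counted transcripts). Sets of 4 values are given in this order. The deposited barcodes of 3 libraries, and the barcodes kept in young replicate 2 (12219) and aged replicate 2 (11892), outnumbered the 10000 nuclei stated as loaded, so a share of nuclei here is a share of kept barcodes. Between 8 and 67 barcodes were shared by any pair of libraries. After the filters 33262 nuclei were kept, of which 24136 formed the hepatocyte-like class (1390, 8879, 5523 and 8344 nuclei). Classes were rebuilt here from marker genes, with the 10 genes left out of the clustering. Median depth per hepatocyte-like nucleus was 3605, 923, 2111 and 2997 UMIs. Each library filled its own hepatocyte clusters: cluster 0 held young replicate 1, clusters 6, 7 and 10 young replicate 2, clusters 18, 19 and 20 aged replicate 1, and clusters 9, 11, 14, 15 and 17 aged replicate 2, each with few nuclei of other libraries. The 12 hepatocyte marker genes were also counted in the other classes, at a median of 17.1 to 90.9% of their hepatocyte level per class and library.

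Promoter windows are shown because activated beta-catenin acts through TCF/LEF factors, whose core motif was searched as CTTTG followed by AA, AT, TA or TT, on both strands. RefSeq windows on GRCm38.p6, 250 bases upstream of a listed start, existed for 6 of the 10 genes and 2 of these held a match, which capitals mark. Across all 32851 windows of that length, 4874 (14.8%) held one. The Slc1a2 window lies at chr2:102706188-102706437, plus strand, inside the longer gene annotated by GENCODE. Its match is CTTTGAT on the minus strand, 207 bases before the start. The Sp5 window lies at chr2:70474673-70474922, plus strand. It holds CTTTGTT on the minus strand at 222 bases and CTTTGAT on the plus strand at 104 bases before the start. The Glul window, chr1:153899679-153899928 on the plus strand, holds none of these letters and has a GC content of 64.8%, against a median of 52.4% over all windows. A match is a string of letters only.
Slc1a2: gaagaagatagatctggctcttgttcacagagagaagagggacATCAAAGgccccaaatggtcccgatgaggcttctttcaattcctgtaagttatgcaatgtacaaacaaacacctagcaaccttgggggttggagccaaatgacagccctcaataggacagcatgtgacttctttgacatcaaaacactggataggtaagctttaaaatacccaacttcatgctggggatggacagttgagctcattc
Sp5: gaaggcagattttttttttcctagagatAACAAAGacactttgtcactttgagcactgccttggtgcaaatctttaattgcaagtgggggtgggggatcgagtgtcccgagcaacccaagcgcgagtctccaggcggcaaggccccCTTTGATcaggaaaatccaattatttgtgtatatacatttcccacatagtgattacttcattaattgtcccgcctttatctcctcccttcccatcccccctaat
Glul: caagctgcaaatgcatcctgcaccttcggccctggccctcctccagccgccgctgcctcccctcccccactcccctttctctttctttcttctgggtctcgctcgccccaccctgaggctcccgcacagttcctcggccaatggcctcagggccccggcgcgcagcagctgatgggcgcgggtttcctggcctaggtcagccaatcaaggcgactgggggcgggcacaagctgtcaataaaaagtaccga

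All 10 genes were higher in the pericentral than in the periportal part of the hepatocyte-like nuclei, in 4 of 4 libraries each. Nuclei were ordered in each library by a zone score built from 11 pericentral and 11 periportal landmark genes that did not include the 10. The score cut each library into 3 equal parts. Levels are summed UMIs scaled to 1000000 per library and part (CPM), compared only within a gene. The summed counts were tested with edgeR's quasi-likelihood test with the library as a block. The SE given with an edgeR log2 difference is derived: the size of the difference divided by the square root of the test's F statistic. Of 13548 genes tested, 11.3% were higher and 10.9% lower in the pericentral part at an adjusted p (Benjamini-Hochberg) under 0.05, and 18.2% were higher in 4 of 4 libraries. The genes were chosen as pericentral, so their direction is a description. Median depth was 3961, 1040, 3592 and 3612 UMIs in the pericentral part and 2764, 885, 2111 and 3337 in the periportal part, and its part in the result was not tested.

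Of the glutamine and ammonia genes, Glul, glutamine synthetase (chr1:153899944-153909723, plus strand, GRCm38), stood at 707 and 650 CPM in the young pericentral part and at 225 and 455 CPM in the aged one. In the periportal part it stood at 41.6, 75.5, 11.4 and 14.2 CPM. The difference was 4.11 on the log2 scale (SE 0.25, edgeR adjusted p = 2.92e-06). Every pericentral value lay above every periportal one. Slc1a2, a glutamate transporter (chr2:102658659-102790784, plus strand), was at 1606, 1164, 1359 and 1585 CPM in the pericentral part and at 30.5, 47.5, 48.9 and 26.0 CPM in the periportal part, a log2 difference of 5.26 (SE 0.21, edgeR adjusted p = 2.56e-07). Its pericentral level was similar in the 4 libraries, with young replicate 2 lowest. Oat, the mitochondrial ornithine aminotransferase that links ornithine to glutamate (chr7:132557478-132576398, minus strand), was at 247, 154, 100 and 68.0 CPM pericentrally and 21.7, 49.8, 13.2 and 10.9 CPM periportally, a log2 difference of 2.58 (SE 0.22), the smallest of the 10. Rhbg, an ammonium transporter of the Rhesus family (chr3:88242874-88254709, minus strand), was at 11.2, 9.65, 1.78 and 3.43 CPM pericentrally and at most 1.63 CPM periportally, where aged replicate 1 had none (log2 difference 3.38, SE 0.41).

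Lgr5, the R-spondin receptor that raises sensitivity to Wnt (chr10:115450311-115587780, minus strand), was at 165, 213, 169 and 218 CPM pericentrally and at 2.93, 9.44, 5.19 and 3.25 CPM periportally. Its log2 difference of 5.36 (SE 0.20, edgeR adjusted p = 1.57e-07) was the largest of the 10, ahead of Slc1a2 by less than either SE. Among the negative feedback genes, Axin2, a scaffold of the beta-catenin destruction complex (chr11:108920349-108950783, plus strand), was at 17.3, 46.0, 16.1 and 24.3 CPM pericentrally, 3.74 above the periportal level (log2, SE 0.24). Nkd1, which binds Dishevelled (chr8:88521354-88594884, plus strand), was at 5.18, 13.5, 8.39 and 9.23 CPM pericentrally, 3.08 above (log2, SE 0.32). Both were highest in young replicate 2, the shallowest library per nucleus.

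The transcription factors were also pericentral. Tbx3, a T-box factor (chr5:119670669-119684724, plus strand), was at 39.3, 109, 37.0 and 48.0 CPM in the pericentral part, with a log2 difference of 4.60 (SE 0.20). Sp5, a zinc finger factor (chr2:70474923-70477729, plus strand), was near the limit of detection, with 2, 13, 11 and 35 UMIs in all hepatocyte-like nuclei and 0 periportal CPM in young replicate 1 and aged replicate 1, so its log2 difference of 4.19 (SE 0.61) depends on the prior count of the fit. Gulo, the last enzyme of ascorbate synthesis (chr14:65986786-66009207, minus strand), was at 211, 261, 111 and 217 CPM pericentrally and at 15.8, 41.0, 7.39 and 8.76 CPM periportally (log2 difference 3.73, SE 0.26). Aged replicate 1 was lowest in both parts. Tbx3os1, annotated on the strand opposite Tbx3, showed a log2 difference of 4.98, and whether the counting used strand is not given in the sources used here.

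**Figure D1:**
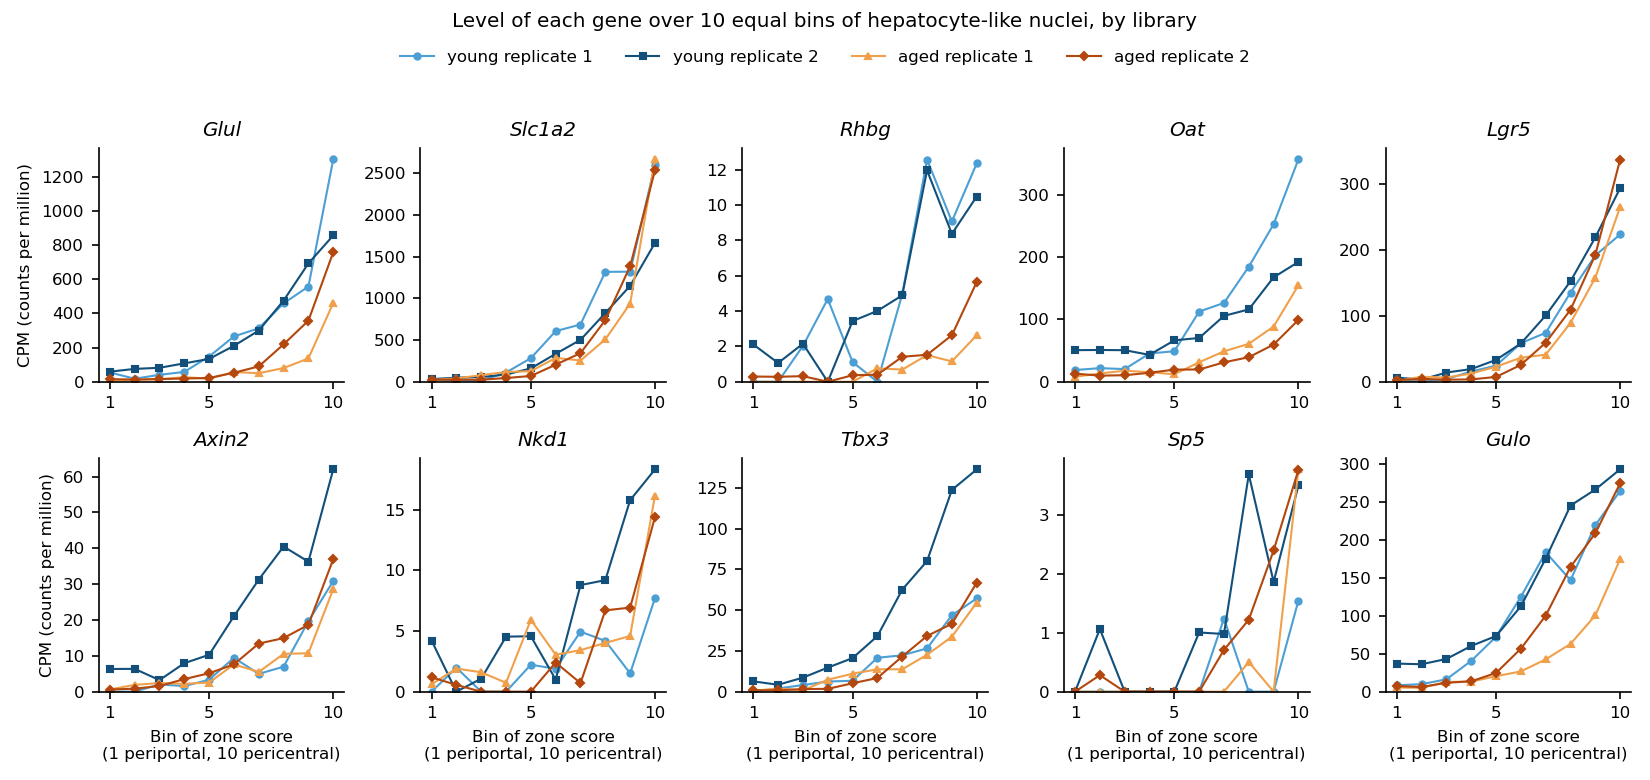
Level of each of the 10 genes (CPM, y axis) over 10 equal bins of the hepatocyte-like nuclei ordered by zone score (x axis, 1 periportal to 10 pericentral), with 1 line per library. The level was highest in the most pericentral bin in 37 of 40 combinations of gene and library.

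Nuclei were also cut into 10 equal bins of the zone score. In the most pericentral bin Glul reached 1303, 857, 462 and 759 CPM, against 54.3, 59.1, 6.75 and 15.1 CPM in the most periportal bin. That top bin held 40.5, 28.6, 53.4 and 48.5% of the Glul level summed over bins, and 37.3, 34.2, 52.9 and 47.0% of the Slc1a2 level. Both aged libraries had a larger such share than both young ones for 8 of the 10 genes, all but Axin2 and Sp5, and a smaller one for 0. Of all 15307 genes, 20.8% had the larger and 16.8% the smaller share. Of the 1528 genes called higher in the pericentral part, 33.2% had the larger and 11.7% the smaller. Median depth in the top bin was 3798, 1128, 4150.5 and 4791.5 UMIs. In bin 6 it was 5034, 842.5, 1070.5 and 1657 UMIs. The part of depth in these shares was not tested. The 3 combinations whose highest bin was not the last were Rhbg in both young libraries and Sp5 in young replicate 2, each with its highest value in bin 8. Per nucleus, Slc1a2 was counted in 68.2% of nuclei with a Glul count and 12.9% of those without in young replicate 1, after each nucleus was thinned to 500 UMIs. The same shares were 51.4 and 9.97% in young replicate 2, 66.4 and 13.7% in aged replicate 1, and 72.0 and 9.95% in aged replicate 2. Of 36 combinations of another gene and a library, 33 had a higher level in nuclei with a Glul count. The exceptions were Nkd1 in young replicate 1 and Sp5 in young replicate 1 and aged replicate 1. Some of the 33 rest on few UMIs, such as Rhbg in aged replicate 1, with 1 UMI against 2. Nuclei with a Glul count had their median zone score at the 80.6, 77.0, 87.1 and 86.6 percentile. How many of all genes had a higher level in them was not counted.

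The genes whose pattern was most like Glul over the 40 points (10 bins in 4 libraries, log2 levels centred within each library) were Ube2e2 (Pearson r = 0.98), Rmdn2, Slc22a23, Tbx3os1 and Kif26b (each 0.97 when rounded), out of 9006 genes compared, which did not include the 10 themselves or the landmarks. For Slc1a2 they were Tbx3os1 (0.99) and Akr1c6 (0.98), for Lgr5 Slco1b2 and Esrrg (0.98 each), for Tbx3 Ahr and Slc16a10 (0.98 each), and for Gulo Akr1c6 and Esrrg (0.98 each). Oat was most like Aldh1a1 and Car3 (0.96 each), Axin2 like Akr1c6 (0.96) and Slco1b2 (0.95), and Nkd1 like Slc22a27 (0.87) and Gm13481 (0.86). Among the 10 themselves, Glul and Slc1a2 had an r of 0.98 and the lowest pair was Rhbg with Nkd1 at 0.61. The points share libraries, depth and the zone order, and no test was made.

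Other pathway genes, 9 lists without the 10, were less uniform across the zones. Of the Wnt ligands and R-spondins, 0 of 5 tested passed with edgeR, and 1 was at an unadjusted p under 0.05. Of the Wnt and R-spondin receptors, 1 of 9 was higher pericentrally, Lrp5 (log2 difference 1.60, SE 0.11), and 2 were lower, among them Lgr4 (-0.36, SE 0.08). Of 4 genes of receptor turnover and secreted inhibition 3 were higher, with Notum, which inactivates Wnt, at 2.66 (SE 0.17) and Rnf43, which removes Wnt receptors, at 1.87 (SE 0.11). In the destruction complex 1 of 11 was higher, Gsk3b at 0.30 (SE 0.07). Among 10 TCF/LEF factors and coregulators 5 were higher and 3 lower, with Tcf7l1 at -2.99 (SE 0.13) and Tle4 at -1.47 (SE 0.16). Of 6 other shared Wnt target genes 4 were higher. This list is not separate: it shares Znrf3, Rnf43 and Notum with the receptor turnover list and Tcf7 and Lef1 with the TCF/LEF list.

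The metabolic lists split in direction. Of 10 other genes of glutamine and ammonia handling, 2 were higher pericentrally and 4 lower: the glutamine transporter Slc1a5 was at 2.72 (log2 difference, SE 0.40) and Gls2, the liver glutaminase, at -2.21 (SE 0.18). Of 10 genes of ornithine, urea and proline metabolism, 2 were higher, among them Prodh, proline dehydrogenase, at 1.19 (SE 0.08). In the same list 4 were lower, among them Asl, argininosuccinate lyase, at -1.46 (SE 0.09). Of 6 genes of ascorbate synthesis and uptake 4 were higher and 1 lower, with Rgn, the lactonase upstream of Gulo, at 2.35 (SE 0.19) and the transporter Slc23a2 at 0.84 (SE 0.10). Without the library as a block Lgr4, Gsk3b and Slc23a2 did not pass (edgeR adjusted p = 0.652, 0.518 and 0.118), nor did Gsk3b without aged replicate 2 (0.0680). The median log2 difference was 3.92 over the 10 genes and -0.01 over all genes tested.

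With age, 0 of the 10 genes passed the edgeR test in the summed hepatocyte-like nuclei. Of 15307 genes, 0.0261% were called higher and 0.00653% lower in aged libraries, 5 genes in all. At an unadjusted p under 0.05, 3 of the 10 were lower (Glul, Oat and Rhbg), against 8.79% of all genes lower and 9.88% higher. Both aged libraries lay below both young ones for 4 of the 10 (these and Gulo), against 26.9% of all genes, and above them for 0 of the 10, against 23.9%. DESeq2 called 824 genes and none of the 10. In simulated counts at the common dispersion of these data (0.13), the edgeR fit recovered 6% of 4-fold changes. A lower level in such a sum can come from fewer nuclei with the transcript or from less of it per nucleus, and the sum does not tell them apart.

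The young libraries had Glul at 333 and 321 CPM (327 ± 8.74, SD, n = 2) and the aged ones at 117 and 195 CPM (156 ± 55.2). The groups did not overlap, and the log2 difference was -1.04 (SE 0.37, edgeR adjusted p = 0.219). Oat was at 124 and 95.2 CPM (young) against 56.7 and 36.0 CPM (aged), also without overlap (-1.22, SE 0.38, edgeR adjusted p = 0.190). Rhbg rested on 32, 51, 15 and 52 UMIs, or 4.63 and 5.15 CPM (young) against 0.881 and 1.56 CPM (aged) (-1.95, SE 0.57, edgeR adjusted p = 0.177). Slc1a2 behaved otherwise, at 731 and 528 CPM (young) against 692 and 674 CPM (aged), so that both aged values lay between the young ones (0.13, SE 0.43, edgeR adjusted p = 0.906). Without young replicate 2 Oat passed (edgeR adjusted p = 0.0434), in a fit that assumes the lone young library to vary like the aged pair and called 1305 genes. With no filter on low counts Rhbg passed (0.0473), among 1517 genes. Over the alternatives the adjusted p ran from 0.0434 to 0.528 for Oat and from 0.0473 to 0.707 for Rhbg.

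Lgr5 was at 76.2 and 97.7 CPM (young) against 86.4 and 92.6 CPM (aged), again within the young range (0.08, SE 0.29, edgeR adjusted p = 0.908). Axin2 was at 8.25, 24.0, 9.16 and 11.9 CPM (-0.54, SE 0.47) and Tbx3 at 20.3, 52.8, 20.2 and 21.6 CPM (-0.73, SE 0.41). Young replicate 2 alone was high for both, and the other 3 libraries lay close together. Nkd1 was at 2.61, 7.17, 5.05 and 4.03 CPM (-0.04, SE 0.56) and Sp5 at 0.290, 1.31, 0.646 and 1.05 CPM (0.12, SE 0.78), with overlapping groups. Gulo was at 117 and 142 CPM (young) against 60.0 and 100 CPM (aged) (-0.66, SE 0.34, edgeR adjusted p = 0.340), without overlap.

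**Figure D2:**
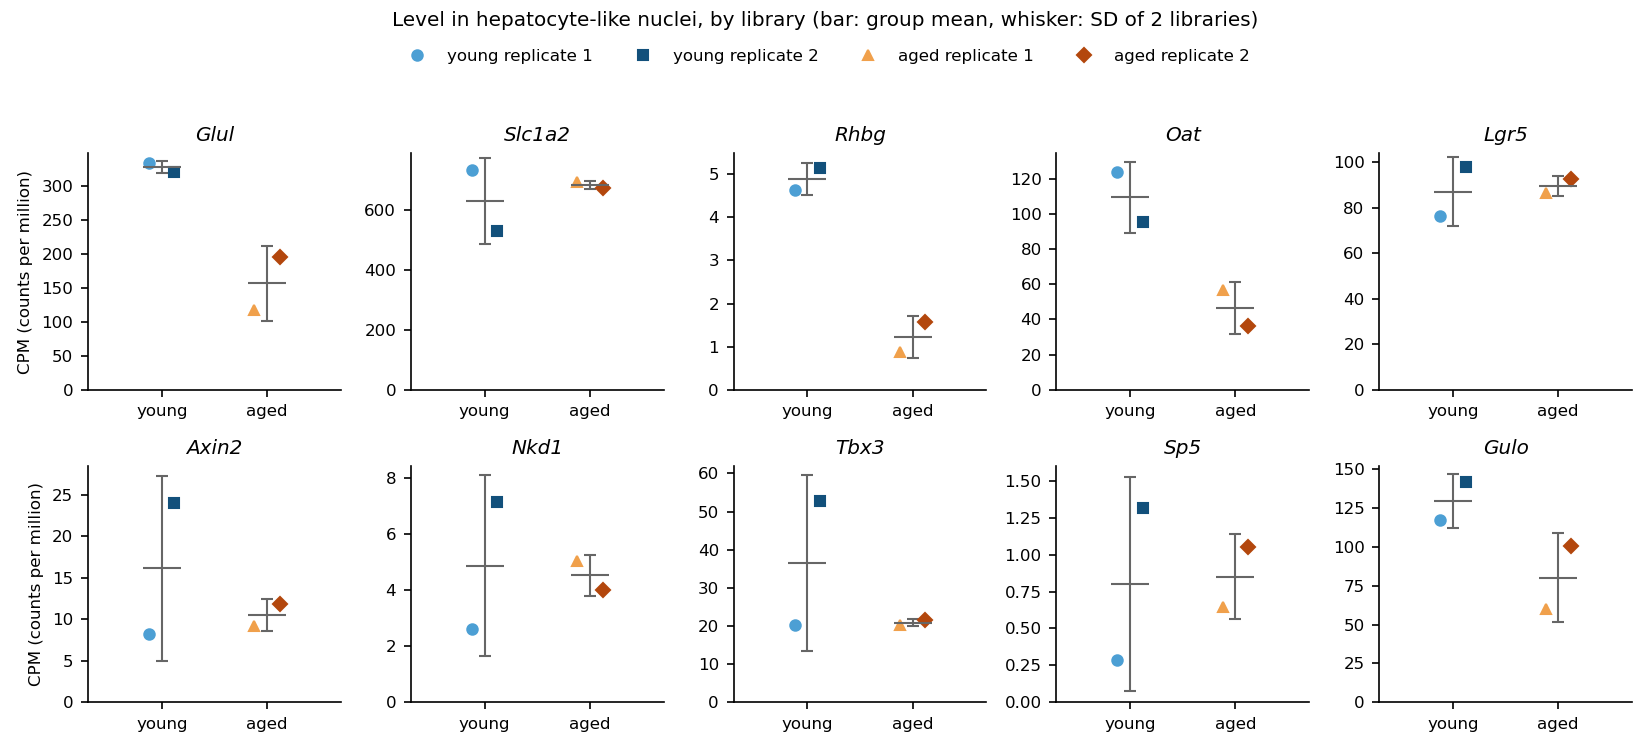
Level of each of the 10 genes in the summed hepatocyte-like nuclei (CPM, y axis) by age group, with 1 point per library, a bar at the group mean and whiskers of 1 SD (n = 2). The young and aged points are apart for Glul, Oat, Rhbg and Gulo and overlap for the other 6.

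The age difference was also tested within each zone. In the pericentral part, of 13200 genes, 0.0% were called higher and 0.00758% lower with age, and 0 of the 10 were called. At an unadjusted p under 0.05, 2 of the 10 were lower (Oat and Rhbg), against 8.16% of all genes lower and 8.52% higher. Both aged libraries lay below both young ones for 3 of the 10 (Glul, Oat and Rhbg), against 26.3% of all genes, and above them for 0, against 23.3%. DESeq2 called 376 genes and none of the 10. There the log2 difference was -0.97 for Glul (SE 0.42, edgeR adjusted p = 0.309), -1.22 for Oat (SE 0.41), -1.94 for Rhbg (SE 0.52), 0.11 for Slc1a2 and 0.08 for Lgr5. For Tbx3 it was -0.72 and for Gulo -0.48, both with overlapping groups. In the periportal part 5 of the 10 had enough counts and 0 were called, against 0.016% of 12470 genes higher and 0.00802% lower, while 3 of the 5 (Glul, Oat and Gulo) had both aged values below both young ones (background 26.8%, and 22.5% for above). The same 3 had an unadjusted p under 0.05, against 7.89% of all genes lower and 8.81% higher. DESeq2 called 396 genes. Glul, at 41.6 and 75.5 CPM (young) against 11.4 and 14.2 CPM (aged), had a log2 difference of -2.12 there (SE 0.36, edgeR adjusted p = 0.146). It passed with DESeq2 (adjusted p = 0.00184). It also passed without either aged library (edgeR adjusted p = 0.0368 without replicate 1 and 0.00659 without replicate 2), where the remaining aged library is assumed to vary like the young pair and 182 and 721 genes were called. Over all its alternatives the adjusted p ran from 0.00021 to 0.261.

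A test of whether the age difference depended on the zone called 0 of the 10, against 0.00738% of 13548 genes whose age difference was more positive in the pericentral part and 0.0% for the opposite. Glul had an interaction of 1.23 (log2, SE 0.32, edgeR adjusted p = 0.686), Gulo of 1.36 (SE 0.33, edgeR adjusted p = 0.559) and Tbx3 of 1.13 (SE 0.40, edgeR adjusted p = 0.883). These 3 of the 10 were at an unadjusted p under 0.05, a level that 2.8% of all genes reached on the more positive side and 2.4% on the other. The estimate was above 0 for 10 of the 10, with a median of 0.98 against 0.02 over all genes. The share of all genes above 0, or of genes called higher in the pericentral part, is not given here. Periportal levels were at most 1.63 CPM for Rhbg, 0.325 CPM for Sp5 and 2.93 CPM for Nkd1, near the limit of detection. DESeq2 called 17 genes.

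The share of hepatocyte-like nuclei with at least 1 Glul UMI, after thinning to 500 UMIs, was 12.7% (exact binomial 95% interval 11 to 14.5) and 12.1% (11.4 to 12.8) in the young libraries. In the aged it was 4.64% (4.10 to 5.22) and 6.98% (6.44 to 7.54). The intervals cover counting error only. Shares for 6 of the 10 (Glul, Oat, Rhbg, Axin2, Tbx3 and Gulo) were lower in both aged libraries than in both young ones. In another random thinning, which covered 15307 genes, this held for 4 of the 10, without Axin2 and Tbx3, against 22.7% of all genes, and the share was higher in both aged libraries for 1, Sp5, against 22.6%. With 2 libraries against 2, an exact two-sided permutation test cannot go below p = 0.333, which these 6 reached (0.556 adjusted over 10 genes). Without thinning, when depth differs between libraries, 1 of the 10 had this pattern. For Slc1a2 the shares were 19.9, 15.0, 16.1 and 14.3%, for Oat 5.54, 4.79, 2.88 and 1.85%, and for Gulo 4.89, 6.37, 2.57 and 4.41%. Lgr5 was counted in 3.96, 4.26, 3.33 and 4.12% of nuclei. Tbx3 was counted in 1.15, 2.40, 0.851 and 1.02%, and Axin2, Rhbg, Nkd1 and Sp5 in at most 1.19%.

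Within the pericentral part alone the share with a Glul count was 25.9 and 23.6% (young) against 10.5 and 17.2% (aged). How many of all genes differed in this way within that part was not counted. In the periportal part it was 2.38, 4.16, 0.978 and 1.29%. T/NK-like nuclei had a Glul count in 11.1, 11.3, 0 and 3.40% after the same thinning (0 of 93 nuclei allows up to 3.23%), from 18, 124, 93 and 294 nuclei with median depths of 1681, 1110, 1049 and 1070 UMIs. In 3 of 4 libraries this share was above that of the periportal hepatocyte-like nuclei, and in 4 of 4 it was below that of the pericentral ones. The T/NK-like level before thinning was 323, 239, 95.2 and 137 CPM. What part RNA from other nuclei had in these shares was not tested. For Slc1a2 the T/NK-like shares were 11.1, 9.68, 4.30 and 10.2%, and for Gulo 0, 4.84, 1.08 and 2.04%.

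**Figure D3:**
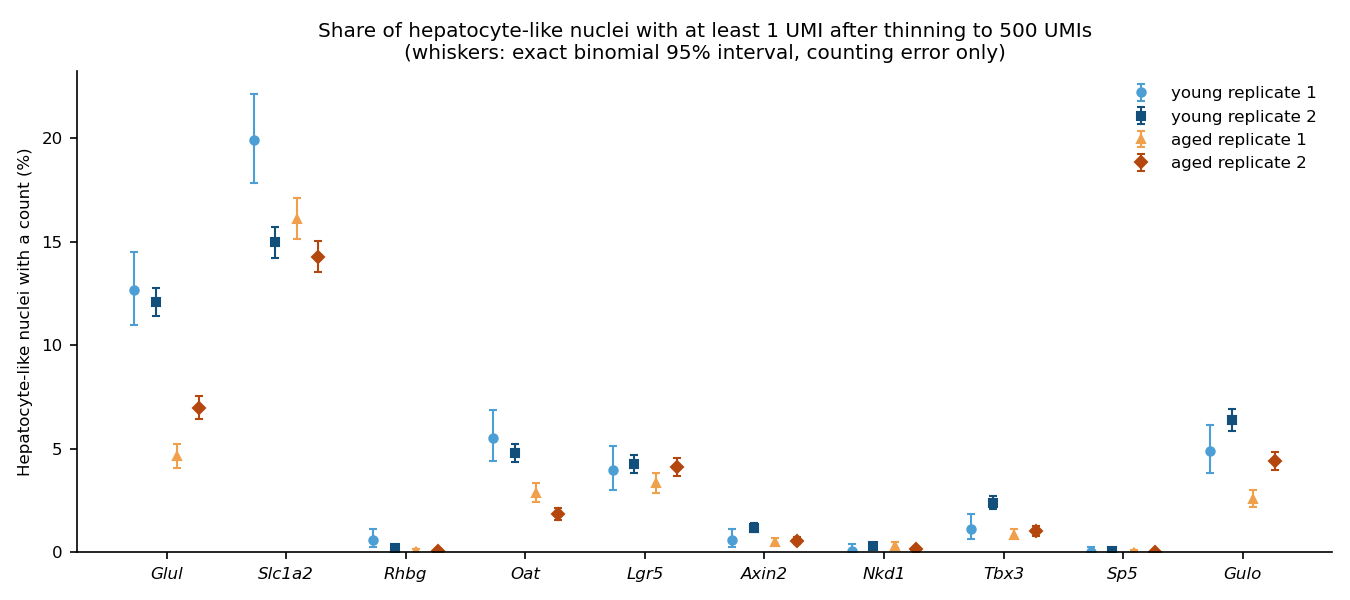
Share of hepatocyte-like nuclei with at least 1 UMI of each gene after thinning to 500 UMIs (y axis, %), with 1 point per library and exact binomial 95% intervals as whiskers. The 2 aged libraries lie below the 2 young ones for Glul, Oat, Rhbg, Axin2, Tbx3 and Gulo in this thinning. In another random thinning it held for 4 of these genes and for 22.7% of all genes.

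In aged replicate 2 the Glul signal was concentrated in 1 cluster. Cluster 15 held 638 nuclei of this library (7.65% of its hepatocyte-like nuclei) and 1, 2 and 3 of the other libraries, and its median zone score was at the 89.4 percentile. It carried 67.9% of that library's Glul UMIs, 61.5% of its Rhbg, 52.8% of its Slc1a2, 41.6% of its Lgr5, 33.4% of its Axin2, 36.1% of its Tbx3, 29.0% of its Oat and 26.4% of its Gulo UMIs. The share was highest for Nkd1, at 73.9% (99 UMIs), and 51.4% for Sp5 (18 UMIs). Glul was at 1690 CPM and Slc1a2 at 4535 CPM in it. Since it came almost wholly from 1 library, it is given as a description of that library.

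In the other 9 pathway lists, 0 genes passed the edgeR age test in hepatocyte-like nuclei, and 0 to 2 genes per list were at an unadjusted p under 0.05. Notum was at 64.0 and 70.5 CPM (young) against 20.5 and 33.1 CPM (aged) (-1.30, SE 0.34, edgeR adjusted p = 0.168). Pygo2, a coactivator of beta-catenin, was at 21.7, 22.8, 6.93 and 8.57 CPM (-1.49, SE 0.34, edgeR adjusted p = 0.141), and Dvl1, a Dishevelled protein, at 118, 176, 53.0 and 68.6 CPM (-1.23, SE 0.32). In each of these the aged values lay below the young ones, a pattern that 26.9% of all genes had. DESeq2 called Pygo2 and Dvl1 (adjusted p = 0.0256 and 0.0415). Of 10 Wnt and R-spondin receptors tested, 6 had an estimate above 0. Both aged libraries lay above both young ones for 3 of these receptors and below for 0. Of 8 genes of the Wnt ligand and R-spondin list, 2 lay above and 3 below in this way. Of all genes, 23.9% lay above. Slc38a3, a glutamine transporter of hepatocytes, was at 1248 and 1248 CPM (young) against 631 and 644 CPM (aged) (-0.94, SE 0.43, edgeR adjusted p = 0.288). Arg1, arginase, was at 554, 488, 238 and 304 CPM (-0.92, SE 0.38). The median log2 difference was -0.60 over the 10 genes and -0.56 over the other 10 genes of glutamine and ammonia handling. It was -0.05 over 7 shared Wnt targets and 0.20 over the 10 Wnt and R-spondin receptors, against -0.02 over all genes.

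Levels were set side by side across the 4 classes with at least 20 nuclei in each library. Glul, Lgr5, Axin2 and Gulo were highest in the hepatocyte-like class in 4 of 4 libraries, and Oat, Slc1a2 and Tbx3 in 3 of 4. Rhbg and Sp5 were highest there in 1 of 4 each, at hepatocyte levels of only 0.881 to 5.15 and 0.290 to 1.31 CPM. Sp5 was highest in stellate/fibroblast-like nuclei in 2 of 4. Glul ranged over 117 to 333 CPM in hepatocyte-like, 57.2 to 174 in endothelial-like, 60.7 to 207 in macrophage-like and 25.0 to 221 in stellate/fibroblast-like nuclei, ranges that overlap. Within a library, its level in endothelial-like nuclei was 48.7 to 66.4% of the hepatocyte level, while the summed hepatocyte markers there stood at 70.4 to 84.3%. Slc1a2 ranged over 528 to 731 CPM in hepatocyte-like, 198 to 437 in endothelial-like, 236 to 1092 in macrophage-like and 195 to 476 in stellate/fibroblast-like nuclei. The highest macrophage value came from the 22 macrophage-like nuclei of young replicate 1. Lgr5 ranged over 76.2 to 97.7 CPM in hepatocyte-like, 37.7 to 76.3 in macrophage-like, 6.19 to 71.5 in endothelial-like and 31.8 to 57.5 in stellate/fibroblast-like nuclei. The part of hepatocyte RNA in these levels was not tested.

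Nkd1 was highest in stellate/fibroblast-like nuclei in 4 of 4 libraries. There it was at 26.2 and 32.8 CPM in the young libraries (29.5 ± 4.73, SD, n = 2) and at 103 and 116 CPM in the aged (110 ± 9.14), from 58, 76, 136 and 365 UMIs. This was 10.0, 4.58, 20.4 and 28.8 times its hepatocyte level. In endothelial-like nuclei it was at 24.8, 14.9, 26.2 and 18.2 CPM and in macrophage-like nuclei at 0 to 15.6 CPM. The share of stellate/fibroblast-like nuclei with an Nkd1 count after thinning was 4.23 and 2.10% (young) against 10.5 and 9.64% (aged). The age groups did not overlap in level or in share. For the level, 26.5% of all genes in this class had both aged libraries above both young ones. For the share, this was not counted over all genes.

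In that class edgeR called 0.0% of 12643 genes higher and 0.0% lower with age, and 0 of the 8 members tested. At an unadjusted p under 0.05 were 5 of the 8 (Glul, Oat, Slc1a2 and Gulo lower, Nkd1 higher), against 8.16% of all genes lower and 10.3% higher. DESeq2 called 317 genes. Both aged libraries were above both young ones for 1 of the 8, Nkd1, against 26.5% of all genes, and below for 5, against 25.4%. Nkd1 had a log2 difference of 1.88 (SE 0.27, edgeR adjusted p = 0.141), and DESeq2 called it (adjusted p = 0.00351). It also passed in each edgeR fit that left out 1 library (edgeR adjusted p = 0.00125 to 0.0165), but these fits take the spread of 1 group from the other and called 113 to 1788 genes in this class. Glul, at 221 and 168 CPM (young) against 25.0 and 59.8 CPM (aged), had a log2 difference of -2.19 (SE 0.45, edgeR adjusted p = 0.141), and DESeq2 called it as well (adjusted p = 0.00121). Over the alternatives the adjusted p ran from 4.17e-05 to 0.309 for Nkd1 and from 2.96e-07 to 0.513 for Glul, the highest of each in cluster 4 alone. The class joined cluster 4, with marker sums of 7496 to 9714 CPM, and cluster 5, with 730 to 2153 CPM and more hepatocyte marker signal (70.4 to 93.4% of the hepatocyte level, against 32.5 to 60.3% in cluster 4). Cluster 4 made up 47.1, 16.2, 70.6 and 85.8% of the class. In cluster 4 alone Nkd1 was at 140 and 73.5 CPM (young) against 301 and 237 CPM (aged) (log2 difference 1.42, SE 0.38, edgeR adjusted p = 0.309). In cluster 5 it was at 14.9, 28.9, 30.1 and 26.0 CPM. Glul had a log2 difference of -1.08 in cluster 4 alone.

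**Figure D4:**
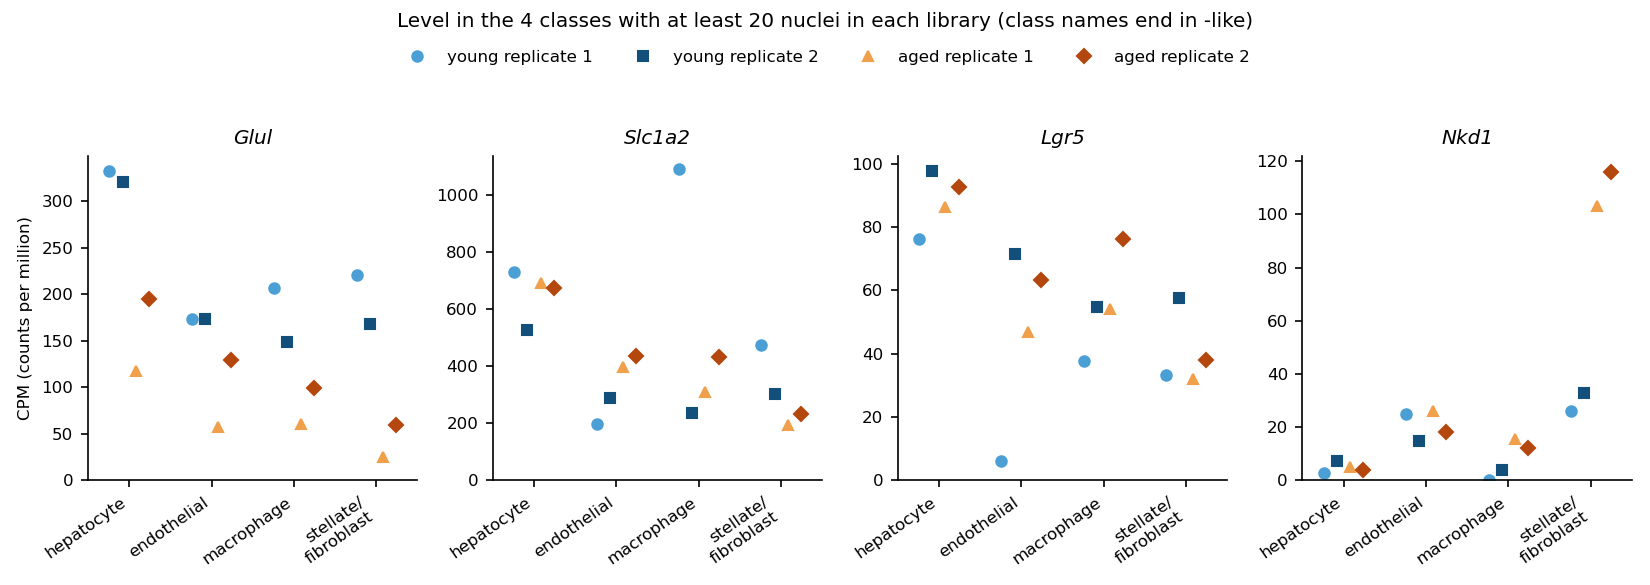
Level of Glul, Slc1a2, Lgr5 and Nkd1 (CPM, y axis) in the 4 classes with at least 20 nuclei in each library (x axis), with 1 point per library. Nkd1 was highest in the stellate/fibroblast-like class in every library, with the aged libraries at 103 and 116 CPM.

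In endothelial-like nuclei edgeR called 0 of 8 members, against 0.00929% of 10767 genes higher and 0.0% lower with age. Both aged libraries were above both young ones for 1 member, Slc1a2 (background 20.2%), and below for 1, Glul (background 25.3%). At an unadjusted p under 0.05 was 1 member, Slc1a2, against 6.16% of all genes higher and 5.27% lower, and DESeq2 called 39 genes. Slc1a2 was at 198, 290, 396 and 437 CPM (0.85, SE 0.32, edgeR adjusted p = 0.397). In macrophage-like nuclei 0 of 7 members were called, against 0.0201% of 9945 genes higher and 0.0302% lower. At an unadjusted p under 0.05, Glul and Oat were lower and Nkd1 higher, against 5.48% of all genes lower and 7.35% higher. Both aged libraries were below both young ones for 3 of the 7 (background 22.7%) and above for 1 (22%), and DESeq2 called 11 genes. Glul was at 207 and 149 CPM (young) against 60.7 and 99.0 CPM (aged) there (-0.96, edgeR adjusted p = 0.328). The value of 207 CPM came from 11 UMIs in 22 nuclei of young replicate 1. Hepatocyte markers summed to 13734 to 18365 CPM in this class, against 1133 to 2259 CPM for the macrophage markers. The part of hepatocyte RNA in this difference was not tested. The R-spondin gene Rspo3, whose product binds Lgr5, was at 99.7 and 121 CPM in young and 252 and 361 CPM in aged stellate/fibroblast-like nuclei (1.47, SE 0.30, edgeR adjusted p = 0.141). DESeq2 called it (adjusted p = 0.0186, and 0.00332 to 0.427 over all alternatives). Cluster 4 made up 47.1, 16.2, 70.6 and 85.8% of the stellate/fibroblast-like class, so the makeup of the class also differed between the age groups. The Rspo3 difference in cluster 4 alone is not given here. In the whole class 26.5% of all genes had both aged libraries above both young ones. In endothelial-like nuclei Rspo3 was at 43.3, 42.5, 73.1 and 80.9 CPM (0.97, SE 0.33, edgeR adjusted p = 0.390). Wls, which carries Wnt proteins to the cell surface, was at 54.1, 60.5, 112 and 107 CPM in stellate/fibroblast-like nuclei (0.92, SE 0.25, edgeR adjusted p = 0.173). In cluster 4 alone its log2 difference was -0.10.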

How the data were processed

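The authors deposited whole-number UMI counts per gene and barcode for each of the 4 libraries. Cell Ranger 7.1.0 and the mm10 build are named in the submitters' processing notes, while neither the strand setting nor the barcode filter is given in the sources used here. From the deposited counts, barcodes with at least 500 UMIs, 300 genes and at most 5% mitochondrial UMIs were kept. The highest doublet scores (Scrublet) were removed, 0.8% of nuclei per 1000 deposited barcodes, since the automatic threshold marked none. Nuclei were clustered with Scanpy 1.11.5 and named from marker lists.

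Counts summed per library and class were scaled with TMM factors and tested with edgeR 4.0.16 (quasi-likelihood, filterByExpr, Benjamini-Hochberg, threshold 0.05). DESeq2 1.42.0 and the other alternatives are described in the closing section. Fits were tested on simulated data. At a set dispersion of 0.05 the age fit in hepatocyte-like nuclei recovered 30% of 2-fold and 100% of 4-fold changes. At 0.13, the common dispersion estimated from these data, it recovered 1% of 2-fold and 6% of 4-fold changes. A gene not called with age in this class may therefore still differ. The members, the gene lists and the tests were chosen with earlier results of these data known. All 10 members are named in each comparison that tested them, and the other lists contribute genes with the smallest p and at least 5 CPM. Gene positions are from GENCODE vM21 on GRCm38. Overlapping annotated genes were Teddm2 for Glul, Fgfr2 for Oat, Gm13872 for Slc1a2, A930009A15Rik for Lgr5, Gm11670 for Axin2 and Tbx3os1 for Tbx3. Fgfr2 lies on the same strand as Oat, and each of the others on the strand opposite its partner. Reads of such pairs may not be separable. Ages, 2 and 30 months, are per the labels.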

Additional observations from a re-analysis of the deposited data

Results flagged for a closer look

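The age difference of Slc1a2 went opposite ways in the endothelial-like and the stellate/fibroblast-like class. It was 0.85 on the log2 scale in the first (198 and 290 CPM young, 396 and 437 CPM aged) and -0.91 in the second (476 and 303 CPM young, 195 and 233 CPM aged), so that the 2 differed by 1.76. The young and aged values did not overlap in either class. Neither difference passed the edgeR test, and the difference between the classes was not tested. In cluster 4 of the stellate/fibroblast-like class alone the log2 difference was 0.13.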

How the results depend on the processing

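The zone difference of the 10 genes kept its direction and its call in 134 of 134 alternative values (log2 2.12 to 6.71). Without the library as a block, 333 genes passed in place of 3007. Counts of genes called with age depended strongly on the fit, and the cause was not tested. With no filter on low counts they were 1517 (hepatocyte-like, 5 as reported), 1272 (pericentral part, 1), 1039 (periportal part, 3), 414 (endothelial-like, 1), 367 (macrophage-like, 5), 1324 (stellate/fibroblast-like, 0) and 135 for the interaction (1). Members called were then 1, 1, 3, 4 (stellate/fibroblast-like) and 2 (interaction), each 0 as reported. With DESeq2 the gene counts were 824, 376, 396, 39, 11, 317 and 17, with 1 member in the periportal part and 2 in the stellate/fibroblast-like class. Plain library totals gave 2 (hepatocyte-like), 1 (periportal), 29 (macrophage-like) and 0 (interaction), and RLE size factors 2 (pericentral).

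Replicate numbers were shared by the age groups, but same-numbered libraries deviated from their group means with r = -0.203 over 15307 genes, so the numbers are not read as pairs. With the replicate block 24 genes passed in hepatocyte-like nuclei, 8 in the pericentral part, 0 in the periportal part and 87 in macrophage-like nuclei. With the pairing crossed, chosen after seeing the data, 11 genes passed in hepatocyte-like nuclei.

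At least 1000 UMIs gave 2 genes (hepatocyte-like) and 0 (interaction), at most 1% mitochondrial UMIs 2, and equal numbers of nuclei 3. For the periportal part, parts of 50% gave 5 genes and parts of 10% gave 1. For the interaction these gave 18 genes with 2 members, and 7 genes. Landmarks without P450 genes gave 2 (pericentral) and 3 (interaction), ordering after thinning 2 and 4, and dropping the library block 0 (interaction). Leaving out each library in turn, where the lone library of a group is assumed to vary like the other group, gave 188 to 1305 genes and 0 to 1 members in hepatocyte-like nuclei, 1 to 430 genes in the pericentral part, 0 to 721 and 0 to 1 in the periportal part and 0 to 171 and 0 to 2 for the interaction. It gave 13 to 362 genes in endothelial-like, 0 to 307 in macrophage-like and 113 to 1788 with 1 to 4 members in stellate/fibroblast-like nuclei. Without thinning 1 member, and with another random thinning chosen after seeing the data 4, in place of 6, had a lower share in both aged libraries.

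Several age differences that had not passed changed sign. Nkd1 in hepatocyte-like nuclei was 0.00073 with no filter, 0.026 with DESeq2, 0.059 with the replicate block, 0.070 with it crossed and 0.47 with equal numbers of nuclei. Leaving out 1 library gave -0.49 to 0.74 for Nkd1, -0.16 to 0.54 for Slc1a2, -1.02 to 0.29 for Axin2 and -0.44 to 1.49 for Sp5. In the pericentral part it gave -0.15 to 0.50 for Slc1a2, -0.021 to 0.22 for Lgr5 and -1.20 to 0.091 for Tbx3. Without young replicate 2 the sign changed for Slc1a2 (both fits), Axin2, Tbx3 and Nkd1. With equal numbers of nuclei Lgr5 was -0.054, and at 1000 UMIs Sp5 was -0.068. In cluster 4 alone, an alternative added after seeing the data, Slc1a2 was 0.13 and Wls -0.10. Depth limits Rhbg, Nkd1 and Sp5 most.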

Other observations

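Classes with fewer than 20 nuclei in some library also held counts of these genes. Glul was at 294, 387, 21.3 and 207 CPM in B-like nuclei, from 4, 24, 7 and 66 UMIs, and at 454, 102, 15.6 and 59.6 CPM in cholangiocyte-like nuclei, from 19, 20, 1 and 11 UMIs. In T/NK-like nuclei it was at 323, 239, 95.2 and 137 CPM. In mesothelial-like nuclei Nkd1 was at 26.1, 13.3, 90.7 and 111 CPM, from 1, 1, 2 and 19 UMIs. These counts are too few to compare the age groups.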
